A study of Anas platyrhynchos with 20 samples.

Results

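The breast muscle of ducks given 2% linseed oil was compared with that of ducks given 2% duck oil by RNA-seq of 5 birds per diet. The 10 breast muscle libraries were taken by their labels from the 20 libraries of the series, and genes were kept where at least 5 of the 10 libraries had an FPKM of at least 1, which left 10148 of 25117 genes. FPKM is the number of sequenced fragments scaled for gene length and for sequencing depth. The birds were male Runzhou white-crested ducks. The control breast muscles (CM 1 to 5) came from the duck oil diet and the high linseed oil breast muscles (HM 1 to 5) from the linseed oil diet, and both diets shared the same basal feed. The labels give the time as day 28, and the study's methods describe 28 days of feeding and a fast before sampling. The study states that it sequenced control birds with the lowest and linseed oil birds with the highest n-3 share of polyunsaturated fatty acids (PUFA). Its own values give the sequenced control muscles a lower mean ratio of n-6 to n-3 PUFA than the whole control group, so not the lowest n-3 share. HM and CM differ by diet and by any such choice, which cannot be told apart. Each library was made from whole muscle, and in such bulk samples fewer cells of a type and less RNA per cell cannot be told apart.

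Linseed oil is rich in α-linolenic acid, the n-3 fatty acid from which longer n-3 PUFA are made by desaturases and elongases. In muscle, fatty acids enter through carriers such as CD36, are carried by fatty acid binding proteins, are bound to coenzyme A, and are then burned in mitochondria by β-oxidation or stored as triglyceride in lipid droplets coated by perilipins. In mammals, PUFA bind the nuclear receptors of the PPAR family, which turn on genes of uptake, oxidation and droplet coating, and they lower the activity of the SREBP factors that drive lipid and sterol synthesis.

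The libraries held 11852903 to 13432987 fragments in genes, with medians of 12761686 in CM and 12644553 in HM. The tissue matched its label. The summed FPKM of 27 fast fibre and sarcomere genes lay between 35013 and 69103, against 24.9 to 394.0 for 14 liver markers. HM 2 stood apart from the other 9 libraries. Its summed FPKM was 597368 against 335064 to 388387, and 4 haemoglobin genes took 5.27% of its fragments against 0.278% to 0.838%. Genes were also tilted by length in HM 2: the shortest 20% of genes lay 1.18 higher than the longest 20% on the log2 scale, against -0.34 to 0.35 in the others, where CM 2 was the highest. APOA1, an apolipoprotein of plasma lipoproteins, was at 379.9 FPKM in HM 2 and between 14.7 and 66.8 in the others, and GPX2, a glutathione peroxidase, at 168 against 6.14 to 23.2. CLDN5, of endothelial junctions, was at 28.2 in HM 2 against 54.2 to 289. The main counts and most lists are therefore given with and without HM 2, and other values are over 10 libraries unless stated. Over all 10 libraries, summed FPKM averaged 398271 ± 111702 in HM and 359846 ± 22123 in CM (SD, n = 5 per group; two-sided exact permutation test, p = 0.802). Without HM 2 the order turned and HM minus CM was -11350. The 10 highest genes held 25.5% ± 5.85 of summed FPKM in HM and 22.7% ± 2.58 in CM (SD, n = 5 per group; exact permutation p = 0.397), and in HM 23.2% ± 3.08 without HM 2.

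**Figure D1:**
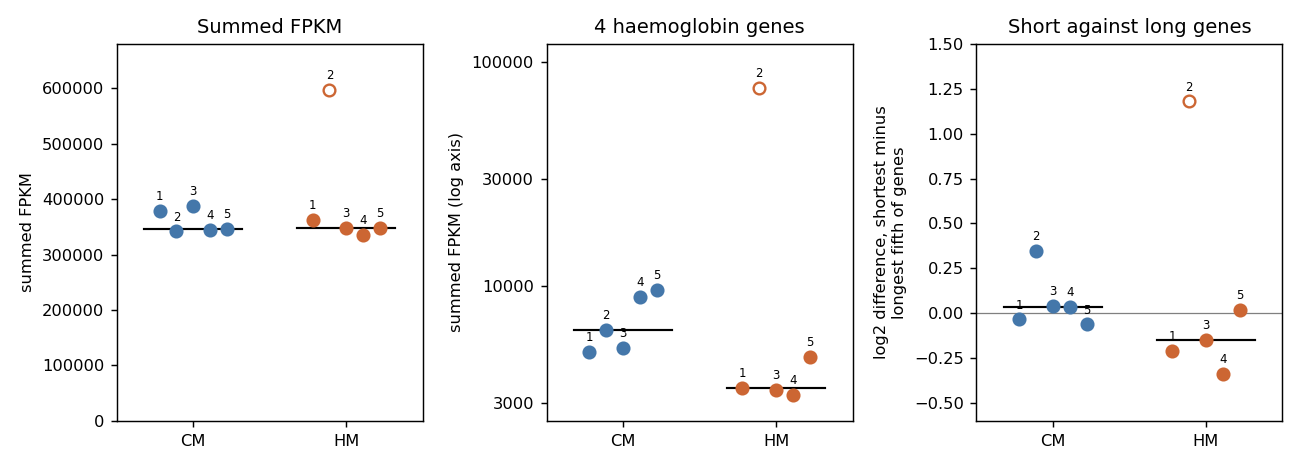
Summed FPKM (left), summed FPKM of 4 haemoglobin genes on a log axis (middle) and the log2 difference between the shortest and the longest 20% of genes (right) in each library. Numbers are replicates, lines are group medians, and the open circle is HM 2, which lies at 597368, 76150 and 1.18, above every other library in each panel.

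No gene passed the threshold for a change between HM and CM in the fit used here. The study's own count-based test (DESeq2), at thresholds of the same size, reported breast muscle genes changed in both directions. Why the outcomes differ was not tested. Under limma, with Benjamini-Hochberg adjustment over 10148 genes, 0 genes (0% of those tested) had an adjusted p below 0.05 together with a log2 difference beyond 1 in either direction, and the smallest adjusted p was 0.347. At an unadjusted p below 0.05 there were 558 genes (5.5%), of which 249 (2.45%) had the higher mean in HM and 309 (3.04%) the lower. A weighted fit on recovered fragment numbers (voom) gave 0 and 560. The differences were small: 95.2% of genes lay within 0.5 of 0 on the log2(FPKM + 1) scale, and the median standard error of a difference was 0.18. Fitted together with the 10 liver libraries, 3 genes passed, DKK2 and NPTX1 among them. That fit takes each gene's error from liver as well, which has another spread, so it adds no independent evidence for muscle. Since no gene passed in the comparison itself, higher and lower are used below only of the measured values, and each log2 difference is HM minus CM on log2(FPKM + 1), which understates the difference of genes at low FPKM.

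Leaving out HM 2 brought more genes under the unadjusted threshold. With 9 libraries, 1336 of 10062 genes (13.3%) had an unadjusted p below 0.05, 622 (6.18%) higher and 714 (7.1%) lower in HM, yet 0 genes passed the adjusted threshold and the smallest adjusted p was 0.0938. Counts of list members at the unadjusted threshold, given below, are to be read beside these shares and those of the 10-library fit. The HM and CM values of 125 genes (1.23%) did not overlap in the 10 libraries, 64 (0.631%) with HM above and 61 (0.601%) with HM below. Without HM 2 this held for 499 genes (4.96%), 260 (2.58%) with HM above and 239 (2.38%) with HM below.

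**Figure D2:**
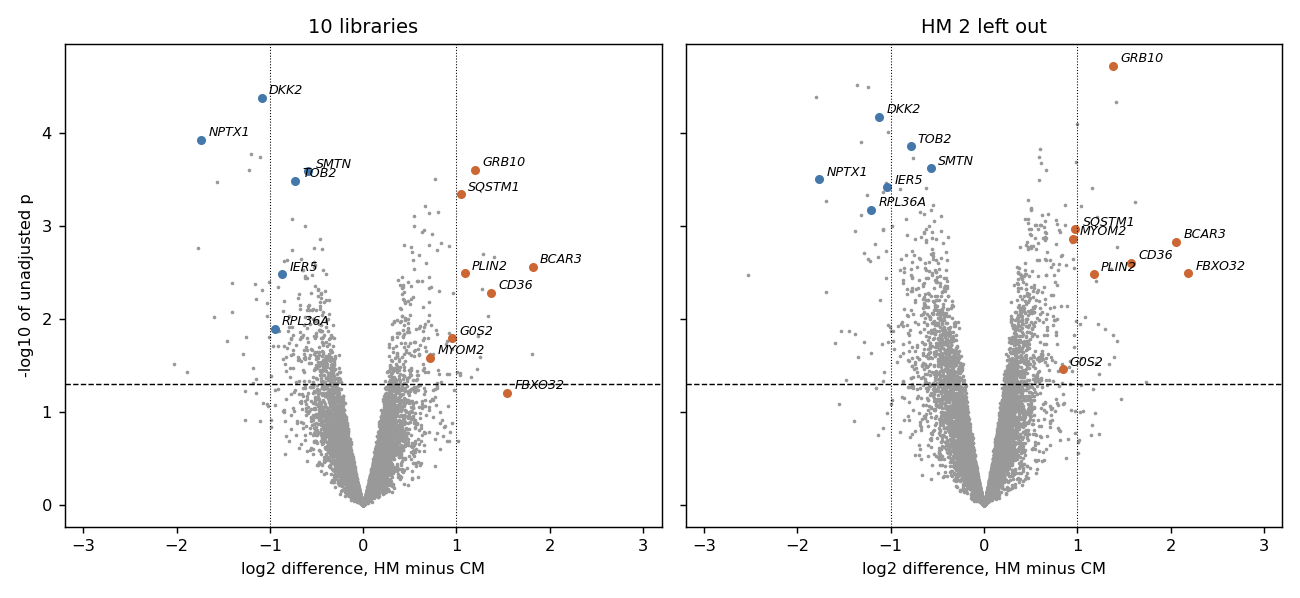
Log2 difference, HM minus CM, against -log10 of the unadjusted limma p for each gene tested, with 10 libraries (left) and with HM 2 left out (right). The dashed line is the unadjusted threshold of 0.05 and the dotted lines are log2 differences of -1 and 1. In the right panel 1336 genes lie above the dashed line against 558 in the left, and none passed after adjustment.

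Among genes with a symbol, those with the smallest p were lower in HM, and none of them is a lipid gene. DKK2, a secreted antagonist of Wnt signalling, was at 6.32, 5.14, 4.102, 4.49 and 4.17 FPKM in CM 1 to 5 and at 2.78, 2.02, 1.095, 1.36 and 1.66 in HM 1 to 5. The lowest CM library was above the highest HM library, and the log2 difference was -1.09 (SE 0.17, limma adjusted p = 0.347). NPTX1, a secreted pentraxin best known from neurons, was at 4.98, 10.01, 3.76, 7.49 and 1.69 FPKM in CM and at 0.606, 0.928, 0.961, 0.548 and 0.861 in HM. CM spread widely while the 5 HM libraries lay close together below 1, and the log2 difference was -1.74 (SE 0.31, adjusted p = 0.347). Both genes are expressed at low levels in this tissue, and NPTX1 had as few as 27 fragments in a library. NPTX1 also passed the FPKM filter through the 5 CM libraries alone, the group in which it was high.

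SMTN and TOB2 followed among the lower genes. SMTN, smoothelin, an actin-bound protein of smooth muscle cells, was at 29.3 ± 1.53 FPKM in CM and 19.2 ± 1.85 in HM (SD, n = 5 per group), with a log2 difference of -0.59 (SE 0.11, limma adjusted p = 0.347). TOB2, of the BTG/TOB family of growth-restraining proteins, was at 25.4 ± 1.73 FPKM in CM and 15.1 ± 3.11 in HM, a difference of -0.73 (SE 0.15, limma adjusted p = 0.347). Neither gene's groups overlapped. Lower with groups apart were also TUBB, a β-tubulin, at -0.75; DHRS7B, a reductase of ether lipid synthesis, at -0.63; SNCAIP at -0.61; SIPA1L2 at -0.58; and GCH1, the first enzyme of tetrahydrobiopterin synthesis, at -0.56. TUBB values of CM 3 and HM 3 were nearly equal, and for GCH1 CM 2 was at 5.39 FPKM against 1.65 to 2.16 in the other controls.

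GRB10 and SQSTM1 led the genes with the higher values in HM. GRB10, an adaptor that dampens insulin receptor signalling, was at 8.43, 5.47, 6.16, 7.23 and 7.78 FPKM in CM and at 14.2, 10.1, 29.3, 18.7 and 19.3 in HM. Every HM library was above every CM library, the log2 difference was 1.2 (SE 0.23, limma adjusted p = 0.347), and without HM 2 it was 1.38 (adjusted p = 0.0938). SQSTM1, the autophagy receptor p62, was at 107, 58.2, 86.4, 55.8 and 74.02 FPKM in CM and at 160.1, 186, 138, 191 and 110.5 in HM. HM 5 was only just above CM 1, and the log2 difference was 1.05 (SE 0.22, adjusted p = 0.423). BCAR3, a signalling adaptor, had the largest difference among genes with a symbol whose groups did not overlap, 1.82 (SE 0.48, adjusted p = 0.619). It was at 1.46, 1.43, 0.853, 1.49 and 2.46 FPKM in CM and at 4.01, 3.43, 21.8, 3.54 and 21.4 in HM, so that HM 3 and HM 5 stood far above the other HM libraries. HM 3 and HM 5 were also the highest 2 libraries for HOMER2, a scaffold protein, at 5.71 and 6.78 FPKM against 2.03 to 2.30 in CM.

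Several other genes had the higher values in HM with groups apart. NEXN, an actin-binding protein of the Z-disc, was at 20.6 ± 1.82 FPKM in CM and 37.7 ± 12.1 in HM (SD, n = 5 per group), a log2 difference of 0.79. FHL1, a LIM-domain protein of the sarcomere, differed by 0.82, with HM 2 the highest at 355 FPKM, and by 0.63 without HM 2. CKMT2, the mitochondrial creatine kinase of striated muscle, differed by 0.64. UBE2B, a ubiquitin-conjugating enzyme, differed by 0.71, PCMTD1 by 0.70 and PALMD by 0.65. Among the 5 smallest p of the higher genes were also PIK3IP1, AOPEP and FBXO21. PIK3IP1, an inhibitor of PI3-kinase, differed by 0.71, but its groups overlapped (HM 5 at 28.17 and CM 5 at 28.23 FPKM). AOPEP, an aminopeptidase, differed by 0.55 and FBXO21, an F-box protein, by 0.54. Limma adjusted p-values of these genes lay between 0.52 and 0.67.

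**Figure D3:**
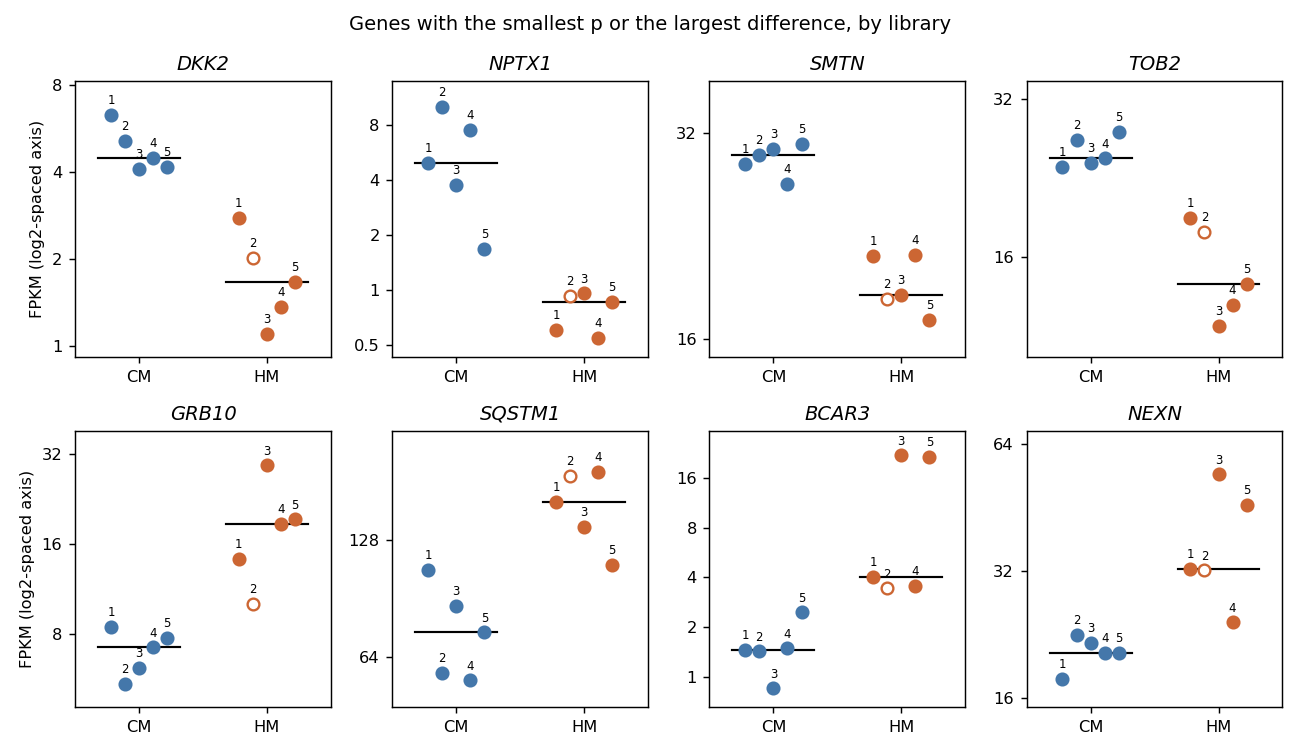
FPKM of 8 leading genes in each library on a log2-spaced axis. Numbers are replicates, lines are group medians and the open circle is HM 2. In all 8 panels the CM and HM values do not overlap; DKK2, NPTX1, SMTN and TOB2 are lower in HM, and GRB10, SQSTM1, BCAR3 and NEXN are higher.

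Among the lipid genes named here, CD36 and PLIN2 had the largest differences. CD36, the fatty acid translocase, was at 26.4, 12.5, 15.7, 30.9 and 21.7 FPKM in CM and at 58.04, 30.2, 35.9, 159.7 and 46.4 in HM. HM 4 was the highest and HM 2 lay just under CM 4, and the log2 difference was 1.37 (SE 0.40, limma adjusted p = 0.619). Without HM 2 every HM library was above every CM library and the difference was 1.58 (limma adjusted p = 0.176). PLIN2, the perilipin that coats small lipid droplets, was at 57.96, 34.7, 32.05, 29.1 and 51.8 FPKM in CM and at 90.4, 67.1, 156, 49.1 and 97.6 in HM. Its groups overlapped through HM 4, and the difference was 1.09 (SE 0.30, limma adjusted p = 0.619). G0S2, an inhibitor of the lipase that opens droplets, was at 349, 391, 516, 304 and 351 FPKM in CM and at 278, 983, 874, 1056 and 809.7 in HM. HM 1 was below every CM library and the other 4 were above every one, with a difference of 0.95 (SE 0.34, limma adjusted p = 0.73).

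The other tested uptake and binding genes lay in both directions, each with a smaller difference than CD36. Of 18 tested uptake and binding genes, 11 had the higher and 7 the lower value in HM, and CD36 alone had an unadjusted p below 0.05. Without HM 2, 8 were higher and 10 lower, and ACSL1 joined CD36 at that threshold, higher by 0.45. The list's median log2 difference was 0.07 with 10 libraries and -0.01 without HM 2, beside medians of -0.00 and 0.00 over all genes. FABP5, the most abundant binding protein of the list, was at 245 ± 58.6 FPKM in CM and 359.9 ± 183 in HM. LPL, which frees fatty acids from lipoproteins, was at 36.5 ± 8.12 and 28.6 ± 10.7 FPKM (SD, n = 5 per group).

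Of 13 triglyceride and droplet genes, 9 were higher and 4 lower in HM, with a median of 0.29 (0.33 without HM 2). Between libraries of a diet the list's median had an SD of 0.28. PLIN2 and G0S2 were higher and FITM2, which helps droplets bud from the endoplasmic reticulum, was lower at an unadjusted p below 0.05, at 7.998 ± 2.09 FPKM in CM and 4.86 ± 2.25 in HM. LPIN1, a phosphatidate phosphatase, was at 12.4 ± 5.83 in CM and 20.7 ± 8.49 in HM, a log2 difference of 0.71 with 10 libraries and 0.99 without HM 2 (limma adjusted p = 0.915 and 0.252).

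Fat cells and endothelium also express CD36 and PLIN2, and muscle contains both. The summed FPKM of 9 fat cell markers lay between 84.4 and 148.6 in CM and between 91.9 and 211.0 in HM, with HM 4 the highest, and the 5 tested had a median log2 difference of 0.14 (-0.10 without HM 2). ADIPOQ, the fat cell hormone adiponectin, was at 109 ± 29.04 FPKM in CM and 124 ± 49.7 in HM, and PCK1 and TSHR were below 1 FPKM throughout. The 20 endothelial markers summed to 862 to 1443 FPKM in CM and 666 to 1349 in HM. Their part in the CD36 and PLIN2 values was not tested.

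β-Oxidation genes had slightly higher means in HM, and few passed even the unadjusted threshold. All 24 tested genes had the higher mean in HM with 10 libraries, 22 of 24 without HM 2, and the median log2 difference was 0.26 in both. Only ECI2 and ACADM had an unadjusted p below 0.05 with 10 libraries, and 3 genes without HM 2. ACADM, the medium-chain acyl-CoA dehydrogenase, was at 149.9, 71.01, 127, 121 and 97.8 FPKM in CM and at 124, 131, 155, 204 and 188 in HM, a difference of 0.51 (SE 0.22, limma adjusted p = 0.869). ECI2, an isomerase needed for the double bonds of unsaturated fatty acids, was at 22.5 ± 5.67 in CM and 33.4 ± 7.89 in HM, a difference of 0.55 (SE 0.20, limma adjusted p = 0.77). The groups of both genes overlapped. HSD17B4, the bifunctional enzyme of peroxisomal oxidation, lay between 23.6 and 33.6 FPKM in CM and between 33.8 and 37.8 in HM, apart by little. ACADL, the long-chain enzyme and the most abundant of the list, was at 220.2 ± 78.7 in CM and 301 ± 81.5 in HM. The list's median had an SD of 0.25 between libraries of a diet, about as much as the difference itself.

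The PPAR target list, which shares members with the lists above, also had mostly higher means. Of its 16 tested genes 15 were higher in HM, 3 of them (PLIN2, CD36 and ACADM) at an unadjusted p below 0.05, with a median of 0.34. Without HM 2 the counts were 13 and 5 and the median 0.36. The share of all genes higher at that threshold was 2.45% with 10 libraries and 6.18% without HM 2. PDK4, the kinase that turns off pyruvate dehydrogenase and the most abundant of the list, was at 1063 ± 265 FPKM in CM and 1303 ± 611 in HM (SD, n = 5 per group), highest in HM 1 and HM 4 and within the CM range or below it in the other 3.

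Sterol genes lay the other way. Of 18 tested genes of cholesterol synthesis and uptake, 17 were lower in HM with and without HM 2, with medians of -0.17 and -0.20. At an unadjusted p below 0.05, 2 were lower with 10 libraries and 6 without HM 2, and none was higher. Over all genes, the share lower at that threshold was 3.04% with 10 libraries and 7.1% without HM 2. SREBF2, the master factor of sterol synthesis, was at 7.33, 7.19, 6.93, 6.41 and 6.398 FPKM in CM and at 7.59, 4.61, 4.68, 4.4 and 5.06 in HM. HM 1 was the highest of all 10 libraries and the other 4 HM libraries were below every CM library, with a difference of -0.35 (SE 0.14, limma adjusted p = 0.847). FDPS, the most abundant member, was at 22.96 ± 3.84 in CM and 20.4 ± 1.56 in HM.

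The desaturases were at low levels, and neither they nor the named elongases had an unadjusted p below 0.05. FADS2 was at 1.36 ± 0.322 FPKM in CM and 1.57 ± 0.473 in HM, and FADS1 at 2.31 ± 0.543 and 2.52 ± 0.725 (SD, n = 5 per group). ELOVL5 was at 8.29 ± 1.17 and 8.06 ± 1.904, and ELOVL1, the most abundant of the list, at 47.6 ± 4.45 and 50.5 ± 11.2. Of 13 tested genes 7 were higher and 6 lower, with a median of 0.06 (-0.02 without HM 2). With 10 libraries TECR, the last enzyme of the elongation cycle, alone had an unadjusted p below 0.05, at 12.5 ± 4.4 in CM and 20.5 ± 8.28 in HM. ACSL4, which activates arachidonic and related acids, was between 13.6 and 19.2 FPKM in CM and between 19.7 and 30.5 in HM 1, 3, 4 and 5, but at 9.54 in HM 2, so that its groups were apart only without that library. Of 10 lipogenesis genes, 3 were higher and 7 lower with a median of -0.13 (-0.07 without HM 2) and none had an unadjusted p below 0.05. FASN, the fatty acid synthase, was at 3.26 ± 0.371 and 2.62 ± 0.686 FPKM, and MID1IP1, an activator of acetyl-CoA carboxylase, at 71.8 ± 8.76 and 56.96 ± 30.1. Of 12 eicosanoid genes, PLA2G15, a lysosomal phospholipase, was higher at an unadjusted p below 0.05, at 19.6 ± 4.504 in CM and 31.8 ± 9.99 in HM.

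**Figure D4:**
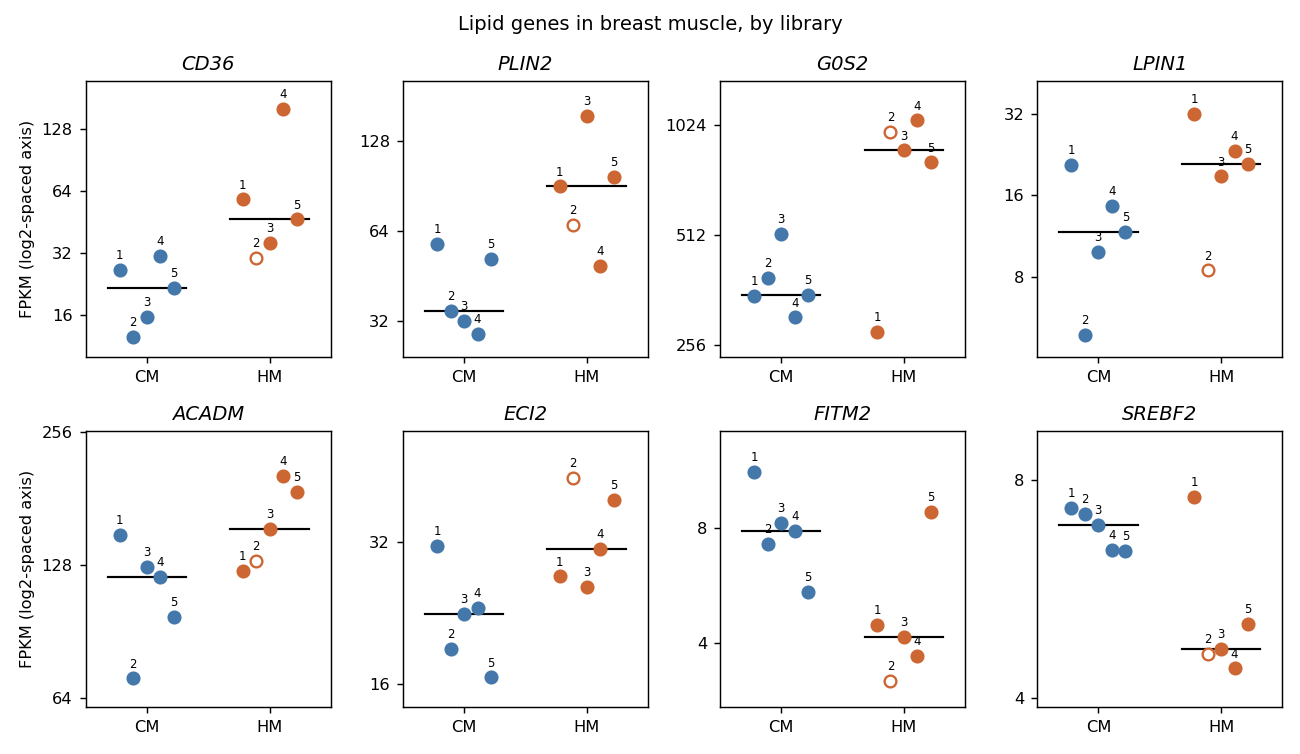
FPKM of 8 lipid genes in each library on a log2-spaced axis, with replicate numbers, group medians as lines and HM 2 as the open circle. CD36, PLIN2, G0S2, LPIN1, ACADM and ECI2 have the higher and FITM2 and SREBF2 the lower median in HM, and the groups overlap in each panel.

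Contractile genes had a median close to 0. Of 26 tested fast fibre and sarcomere genes, 18 were higher and 8 lower in HM, with a median of 0.11 (0.13 without HM 2) and 1 gene in each direction at an unadjusted p below 0.05 (4 higher and 0 lower without HM 2). MYOM2, a protein of the M-band, was at 109, 73.7, 115, 93.9 and 86.8 FPKM in CM and at 299, 82.3, 165, 158 and 145 in HM. Apart from HM 2, every HM library was above every CM library, and the difference of 0.72 (SE 0.28, limma adjusted p = 0.813) became 0.95 without it (adjusted p = 0.155). MYOZ3, a Z-disc protein, was at 23.7 ± 8.203 in CM and 14.7 ± 4.698 in HM. ACTA1, skeletal α-actin and the most abundant of the list, was at 24832 ± 6237 and 30232 ± 6189 FPKM (SD, n = 5 per group).

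Slow fibre genes were split evenly, 4 higher and 4 lower of 8, with a median of 0.00 (-0.12 without HM 2), and none had an unadjusted p below 0.05. TNNC1, the slow and cardiac troponin C, ranged from 1630 to 2002 FPKM in CM and from 878 to 3140 in HM, and CASQ2, a calcium store protein, was at 374 ± 102 and 287 ± 119. Of 19 myogenic genes, 10 were higher and 9 lower. MSTN, myostatin, the brake on muscle growth, was at 27.6 ± 9.16 in CM and 17.95 ± 6.91 in HM, and MYOD1 at 47.4 ± 19.1 and 61.4 ± 19.2.

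Among energy genes outside β-oxidation, PPP1R3C had the largest difference of those named. PPP1R3C, which brings a phosphatase to glycogen and promotes its synthesis, was at 75.5, 139, 59.9, 168 and 69.2 FPKM in CM and at 48.4, 19.8, 20.6, 24.7 and 101 in HM. All but HM 5 were below every CM library, with a difference of -1.41 (SE 0.45, limma adjusted p = 0.682). The 25 tested glycolysis and glycogen genes had a median of 0.08 (0.12 without HM 2), and GAPDH, the most abundant, ranged from 10930 to 27423 FPKM in CM and from 12682 to 43862 in HM. UQCRB, a complex III subunit, was at 704 ± 118 in CM and 1252 ± 467 in HM, a difference of 0.75 (SE 0.29, adjusted p = 0.813). It was 1 of 69 oxidative phosphorylation subunits, of which 53 were higher in HM with 10 libraries, 1 higher and 1 lower at an unadjusted p below 0.05, with a median of 0.11. Without HM 2, 30 were higher and 39 lower, 1 and 8 at that threshold, with a median of -0.02, and with the trend on gene length also removed 5 and 1, with a median of 0.17. ATP5F1B, the most abundant, was at 1875 ± 495 and 1879.8 ± 472.

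Ribosomal protein genes had a median near 0 over 10 libraries and a lower one without HM 2. With 10 libraries 35 were higher and 37 lower of 72, with a median of -0.02. Without HM 2, 66 of 72 were lower, 22 of them at an unadjusted p below 0.05, and the median was -0.27. Over all genes, the share lower at that threshold was 3.04% with 10 libraries and 7.1% without HM 2. RPL36A was at 153, 404, 309.7, 275 and 321 FPKM in CM and at 157, 297, 119, 103 and 109 in HM. Its difference was -0.95 (SE 0.32, limma adjusted p = 0.73) and -1.21 without HM 2 (adjusted p = 0.155). RPS20, the most abundant, was at 2863 FPKM in HM 2 and between 891 and 1437 in the other 9. The ribosomal genes are short, with a median length of 648 bases, and the difference between short and long genes lay the same way: without HM 2 it averaged -0.17 in HM and 0.06 in CM. With each library's trend on gene length removed, 916 genes (9.03%) had an unadjusted p below 0.05, 448 (4.41%) higher and 468 (4.61%) lower, and without HM 2 1218 (12.1%), 618 (6.14%) higher and 600 (5.96%) lower. In that fit the median of the ribosomal genes without HM 2 was -0.07, and 2 were higher and 6 lower at an unadjusted p below 0.05. The proteasome list also differed between the fits, with 26 of 32 genes higher over 10 libraries (median 0.17) and 15 of 32 without HM 2 (median -0.02). With the length trend removed and HM 2 left out, its median was 0.11. In that fit 3 were higher and 0 lower at an unadjusted p below 0.05.

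Autophagy and muscle breakdown genes held SQSTM1 and others with the higher value in HM. Of 23 tested genes, 15 were higher and 8 lower, 3 and 0 at an unadjusted p below 0.05, with a median of 0.19. Without HM 2 the counts at that threshold were 9 and 1, with a median of 0.28. Over all genes, the share higher at that threshold was 2.45% with 10 libraries and 6.18% without HM 2. CTSL, a lysosomal protease, was at 38.8 ± 2.74 in CM and 53.7 ± 15.1 in HM, and MAP1LC3B, which marks the autophagosome, at 115 ± 14.5 and 148 ± 20.4. FBXO32, the atrophy ubiquitin ligase atrogin-1, was at 50.9, 5.203, 21.5, 31.6 and 30.7 FPKM in CM and at 193, 10.4, 122, 128 and 43.98 in HM. CM 2 and HM 2 were both the lowest of their group, and the difference was 1.54 (SE 0.75, limma adjusted p = 0.912) and 2.19 without HM 2 (adjusted p = 0.188). DDIT4, an inhibitor of mTORC1, was at 323 ± 46.5 in CM and 216 ± 121 in HM, lowest in HM 3 at 52.7.

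Immediate early genes, which answer within minutes to stress, contraction or growth factors, were mostly lower in HM. Of 22 tested genes, 16 were lower and 6 higher, 5 and 1 at an unadjusted p below 0.05, with a median of -0.47. Without HM 2 these were 14 and 8, 3 and 1, with a median of -0.30. At the unadjusted threshold 3.04% of all genes were lower and 2.45% higher with 10 libraries, and 7.1% and 6.18% without HM 2. The list's median had an SD of 0.43 between libraries of a diet. IER5 was at 11.98, 19.1, 11.9, 13.3 and 16.8 FPKM in CM and at 8.69, 12.4, 7.205, 4.02 and 6.805 in HM. Its groups overlapped only through HM 2 and differed by -0.87 (SE 0.24, limma adjusted p = 0.619). FOS was at 17.7, 61.99, 121, 38.2 and 126 FPKM in CM and at 23.7, 16.1, 13.4, 33.8 and 38.2 in HM. CM 2 to 5 were above every HM library, CM 4 only just (38.19 against 38.16 FPKM in HM 5), and CM 1 was within the HM range. JUN was at 199 ± 63.9 and 119 ± 32.2 FPKM, JUND at 205 ± 73.9 and 118 ± 52.3, and NR4A3 at 15.7 ± 10.9 and 5.79 ± 3.902. KLF2, a factor of the flow response in endothelium, lay the other way, at 72.7 ± 19.02 in CM and 119 ± 32.02 in HM.

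Most cell cycle genes had the lower mean in HM. Of 23 tested cell cycle genes 19 were lower in HM, 4 of them at an unadjusted p below 0.05, with a median of -0.31 (-0.34 without HM 2). The share of all genes lower at that threshold was 3.04% with 10 libraries. The list's median had an SD of 0.33 between libraries of a diet. The 27 listed genes summed to 168.5 and 224.6 FPKM in CM 1 and CM 2, the highest libraries. The sum was 98.2 to 125.3 in CM 3 to 5 and 101.9 to 138.0 in HM. MCM5, of the helicase that opens DNA for replication, was at 3.06, 3.41, 2.06, 1.62 and 1.699 FPKM in CM and at 1.35, 1.69, 1.15, 0.356 and 1.03 in HM, a difference of -0.67 (SE 0.21, limma adjusted p = 0.651). Its groups overlapped only through HM 2. PLK1, UHRF1 and TPX2, which act in mitosis and DNA methylation, differed by -0.82, -0.48 and -0.49, and CM 1 and CM 2 were the 2 highest libraries for each. PCNA, the most abundant of the list, was at 27.1 ± 5.94 in CM and 27.7 ± 7.43 in HM. Of 16 clock genes, NFIL3 was higher (16.9 ± 6.17 in CM, 30.2 ± 13.4 in HM) and HLF lower (11.3 ± 2.05 and 7.41 ± 4.15) at an unadjusted p below 0.05; 9 of the list were higher and 7 lower, with a median of 0.10. Without HM 2, 13 were higher and 3 lower, 3 and 0 at that threshold, with a median of 0.14. Both are clock-controlled factors with opposite effects on shared target sites in mammals.

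**Figure D5:**
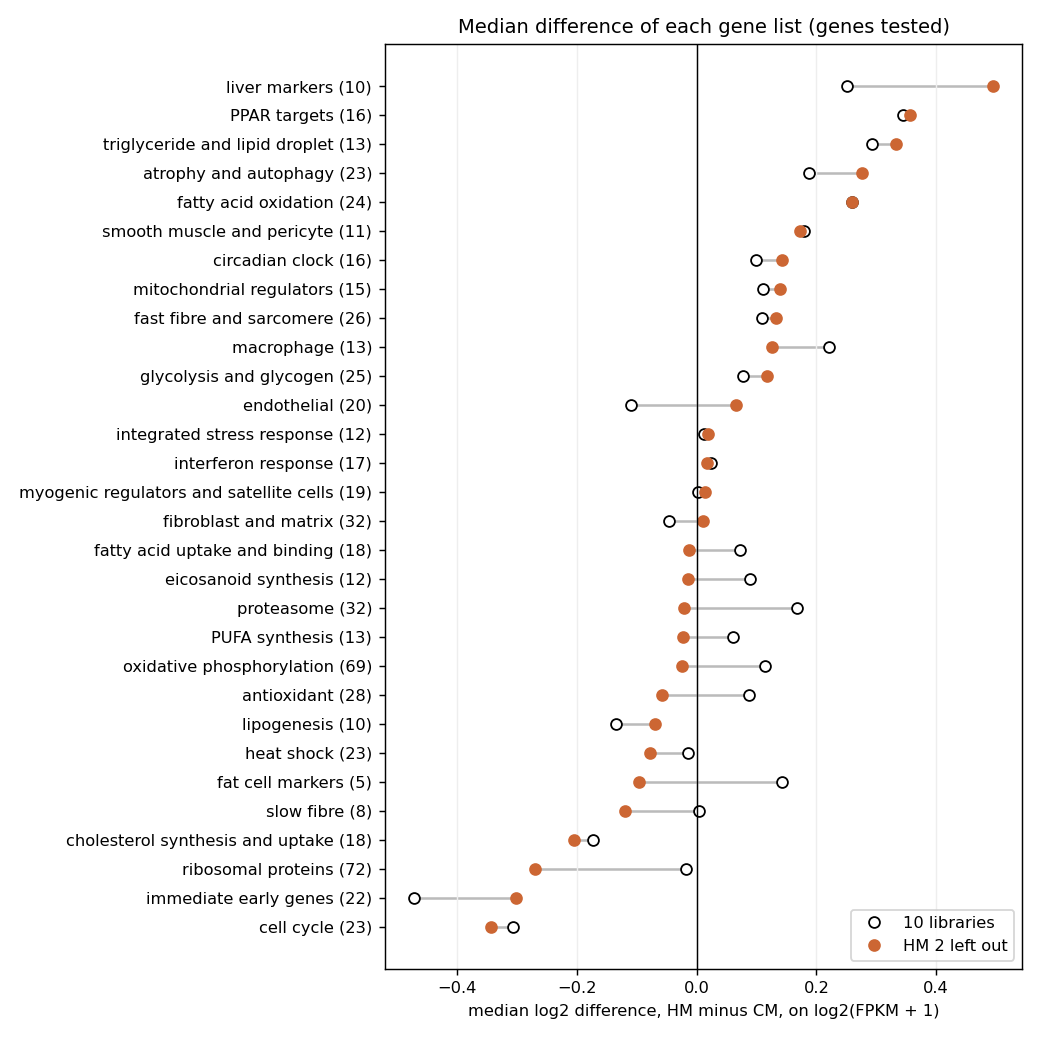
Median log2 difference, HM minus CM, of each gene list with at least 5 tested genes (number in brackets), with 10 libraries (open circles) and with HM 2 left out (filled circles). Cell cycle, immediate early and cholesterol genes lie below 0 and PPAR target, droplet and β-oxidation genes above 0 in both, while the ribosomal list goes from -0.02 to -0.27.

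Genes of other cells in the muscle were also measured. Of 13 macrophage genes 11 were higher in HM with a median of 0.22 (0.13 without HM 2), which had an SD of 0.23 between libraries of a diet. PTPRC, the leukocyte marker CD45, was at 1.402 ± 0.163 in CM and 2.199 ± 0.757 in HM. Only 2 lymphocyte genes were tested, and they lay in opposite directions. CD3D, a T cell receptor subunit, was at 1.18 ± 0.658 FPKM in CM and 3.398 ± 2.61 in HM, with HM 2 the highest at 7.88. It had 8 to 128 fragments per library. JCHAIN, the joining chain of IgA and IgM, was at 2.84 ± 1.45 in CM and 1.87 ± 0.861 in HM. Of the 22 lymphocyte markers, 16 were below 1 FPKM throughout. Of 32 fibroblast and matrix genes 12 were higher and 20 lower, with a median of -0.05 (0.01 without HM 2). FMOD, a collagen-binding proteoglycan of tendon, was higher at an unadjusted p below 0.05, and SPARC, the most abundant, was at 843 ± 127 and 852 ± 207 FPKM. Of 20 endothelial genes 14 were lower with 10 libraries (median -0.11) and 8 without HM 2 (median 0.07). Of 11 smooth muscle genes, SMTN among them, 8 were higher in both, with medians of 0.18 and 0.17.

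Haemoglobin, the oxygen carrier of red blood cells, separated HM 2 from the rest. The 4 haemoglobin genes summed to 5073, 6376, 5306, 8902 and 9628 FPKM in CM 1 to 5 and to 3495, 76150, 3428, 3277 and 4837 in HM 1 to 5. HM 2 was far above every other library, and the other 4 HM libraries were below every CM library. Without HM 2 the sum was 3759 ± 724 in HM and 7057 ± 2090 in CM (SD, n = 4 and 5), given with no test, since HM 2 was set apart in part by these genes. With all 10 libraries an exact permutation test, two-sided, gave p = 1. TFRC, the transferrin receptor that red cell precursors use to take up iron, was at 50.5 ± 9.003 FPKM in CM and 35.3 ± 18.3 in HM. In HM 2 it was at 49.9, within the CM range of 37.5 to 60.0. Of the 4 tested red blood cell genes other than haemoglobin, 3 were higher in HM over 10 libraries and TFRC alone was lower. Without HM 2, 1 was higher and 3 were lower. Whether blood left in the tissue differed between the diets was not tested. Haemoglobin genes are close copies of each other, so that the split of fragments among them is uncertain, and only their sum is given.

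The remaining lists had at most 1 gene each at an unadjusted p below 0.05 with 10 libraries. Medians with 10 libraries and without HM 2 were 0.09 and -0.06 for 28 antioxidant genes, 0.11 and 0.14 for 15 mitochondrial regulators, and 0.01 and 0.02 for 12 genes of the integrated stress response. They were -0.02 and -0.08 for 23 heat shock genes, 0.02 and 0.02 for 17 interferon genes, and 0.25 and 0.50 for 10 liver markers. HSPB2, a muscle heat shock protein, was that gene in the heat shock list, at 13.7 ± 1.97 FPKM in CM and 9.06 ± 3.498 in HM. The lists of 4 red blood cell genes other than haemoglobin, 3 nerve genes and 1 skin gene had medians of 0.22, -0.32 and 0.11, and of -0.24, -0.65 and 0.07 without HM 2.

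Genes the study names for breast muscle matched 33 entries, where FATP6 and ST2B1 match 2 entries each and PLA2 could not be assigned to a single gene. They were chosen in part from these libraries, so that their direction here is no independent evidence. Of these, 13 passed the FPKM filter, and none of the 13 passed after adjustment. An unadjusted limma p below 0.05 was found for 3 of them (CD36, CXCL14 and P2RX5), beside 5.5% of all genes tested. P2RX5, an ATP-gated ion channel, was at 8.53, 7.61, 5.18, 10.7 and 7.78 FPKM in CM and at 11.8, 6.76, 32.7, 8.89 and 27.2 in HM, where HM 3 and HM 5 stood above the rest. CX3CL1, a chemokine, showed the same 2 libraries, at 4.25 and 4.95 FPKM against 0.935 to 1.71 in the other 8. CXCL14 was at 1.75 ± 0.925 in CM and 0.754 ± 0.6499 in HM (SD, n = 5 per group). It too rests on few fragments, 31 to 114 per library in CM and 6 to 46 in HM. Its groups overlapped, and without HM 2 its unadjusted limma p was 0.0594. Of the carriers and shuttle enzymes, SLC27A1 was at 43.9 ± 6.44 and 57.5 ± 18.2, CPT1B at 130.1 ± 53.1 and 169 ± 45.6, CPT2 at 22.3 ± 4.404 and 26.8 ± 7.47, and CAV1 at 279.9 ± 34.8 and 233 ± 35.1. FABP4 was between 13.2 and 52.1 FPKM in 9 libraries and at 174 in HM 2.

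The other 20 entries were below the filter and rest on few fragments. IL16, a cytokine, was between 0.207 and 0.339 FPKM in CM and between 0.558 and 0.883 in HM, from 19 to 81 fragments per library. HRH1, the histamine H1 receptor, was between 0.182 and 0.626 FPKM in CM and between 0.726 and 1.38 in HM, from 16 to 122 fragments. CNTFR, the receptor of ciliary neurotrophic factor, was between 0.557 and 2.21 in CM and between 0 and 0.528 in HM, with at most 50 fragments. The groups of these 3 genes did not overlap. Nor did those of CYP3A1 in FPKM, between 0 and 0.0599 in CM and between 0.0695 and 0.289 in HM. In fragments they met, with 0 to 2 per library in CM and 2 to 8 in HM. Over all tested genes, to which these entries do not belong, the share without overlap was 1.23%. The study named these genes as changed in these same libraries, so their separation is no independent evidence, and no test was made of them. CCL20 was at 0 in all 5 CM libraries and had at most 5 fragments in an HM library, and ELOVL2, an elongase of long PUFA, had 3 to 25 fragments per library.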

How the data were processed

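Poly(A) RNA from breast muscle was sequenced. Per the submitters' processing notes, reads were mapped with HISAT2 2.0.5 to a duck genome, which the study links as ZJU1.0, and levels were given as FPKM. The deposited table holds FPKM per gene for 20 libraries, as the authors made them, and a gene length; it holds no counts, so limma took the place of the count-based test of the study. Fragments were recovered from the FPKM steps (100% whole), and the depth in each library's FPKM was proportional to a median-ratio size factor, not to its total. Values were used as deposited.

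Log2(FPKM + 1) was fitted with limma 3.58.1 in R 4.3.3 (trend, Benjamini-Hochberg over all genes tested), 5 HM against 5 CM libraries. A change required an adjusted p below 0.05 and a log2 difference beyond 1 in size. The script was tested on simulated data. Single values per library were compared by exact permutation. No pair of libraries in a group agreed within sampling noise (lowest chi-square per gene 29.2 over 20 pairs). Symbols came from the table and from RefSeq (assembly IASCAAS_PekinDuck_T2T), which matched 20868 gene IDs. Alternatives were other pseudocounts, filters, scalings, fits and left-out libraries.

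The comparison, its 38 lists and the rule for genes named were chosen with earlier results of these data known. The rule took the genes the study names, the 10 largest differences in each direction with groups apart, the 5 smallest p in each direction, in each list the member with the smallest p and the most abundant, and the genes most apart in HM 2, of which 3 are given. ACADM, FITM2, LPIN1, LPL, ACSL4, HSD17B4, SREBF2, MYOZ3, FBXO32, DDIT4, CTSL, MAP1LC3B, FOS, JUN, JUND, NR4A3, KLF2, PLK1, UHRF1, TPX2 and HLF were named after their values were seen, as was the haemoglobin list. In the lists of antioxidant, mitochondrial, stress response, interferon, proteasome, endothelial and liver genes not every such member was described. Some genes the rule takes are not reported here.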

Additional observations from a re-analysis of the deposited data

Results flagged for a closer look

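In 190 checks of a group of 5 libraries (90 genes on log2(FPKM + 1) and 5 library measures), 15 libraries lay farther from the rest of their group than Dixon's limit of 0.71 allows, where chance gives about 1 in 20 groups. HM 2 accounted for 4: summed FPKM of 597368 against 335064 to 361863 in the other HM libraries, haemoglobin at 76150 FPKM against 3277 to 4837, a short-against-long difference of 1.18 against -0.34 to 0.02, and RPS20 at 2863 FPKM against 891 to 1130. CM 2 accounted for 4: the short-against-long difference at 0.35 against -0.06 to 0.04, GCH1 at 5.39 FPKM against 1.65 to 2.16, HSD17B4 at 23.6 against 30.7 to 33.6, and RPS20 at 1437 against 1102 to 1154.

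In HM 1, G0S2 was at 278.3 FPKM against 809.7 to 1056 in the other HM libraries, and SREBF2 at 7.59 against 4.40 to 5.06. In HM 4, TUBB was at 28.1 against 52.1 to 62.8. Among the controls, SNCAIP was at 10.5 in CM 5 against 7.67 to 8.15, PIK3IP1 at 28.2 in CM 5 against 19.7 to 21.7, PDK4 at 1530.5 in CM 1 against 884 to 999, and NFIL3 at 6.61 in CM 4 against 16.4 to 22.1.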

How the results depend on the processing

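The count of 0 changed genes became 3 with all 20 libraries in one fit (DKK2 and NPTX1 among them), where liver also enters each gene's error. It became 1 with the replicate number as a block (a transmembrane protein 198-like gene, limma adjusted p = 0.0436). The count stood at 0 under the other alternatives that kept both thresholds, each left-out library included. Unadjusted p with the fold threshold gave 42 genes. Deviations of same-numbered HM and CM libraries correlated at 0.30, 0.37, -0.06, 0.12 and 0.01 for numbers 1 to 5, and 3 of 5 correlated best with their own number. The HM and CM libraries came from different birds and the labels name no pairing, so the numbers were not taken as pairs. Of the 5 correlations, 2 lay below 0.1. The block moved the unadjusted count from 558 to 763. That count was 1046 without a filter, 348 with FPKM of at least 5, 419 (without CM 2) to 1336 (without HM 2) with a library left out, and, under settings chosen after seeing the data, 916 with gene length removed, 1218 with length removed and HM 2 left out, and 1345 by voom without HM 2. With a library left out, the difference for summed FPKM, HM vs CM, ranged from -11350 (without HM 2) to 54226.3.

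Many of the 90 genes named with a fit were chosen for a small p or groups apart in these libraries. A kept sign is therefore no independent evidence. Of the 90, 78 kept their sign in each alternative, all 56 with an unadjusted p below 0.05 among them. The other 12 turned, and their differences over 10 libraries lay between -0.05 (ELOVL5) and 0.24 (GAPDH). By voom without HM 2 these were FADS1 (-0.0078), ELOVL1 (-0.0541), GAPDH (-0.0045), ATP5F1B (-0.12), RPS20 (-0.19), PCNA (-0.12) and FABP4 (-0.57). With length removed and HM 2 left out they were FADS1 (-0.0482), ELOVL5 (0.0016), ELOVL1 (-0.0053), ATP5F1B (-0.0279) and FABP4 (-0.26), with quantile normalization ATP5F1B (-0.036), PCNA (-0.0138) and FABP4 (-0.0251), and for SPARC median-ratio scaling (0.0038) and voom (0.0055). With a library left out, ranges crossed 0 for FADS1 (-0.0193 to 0.16), ELOVL5 (-0.16 to 0.0173), ELOVL1 (-0.0528 to 0.13), PDK4 (-0.0087 to 0.35), ADIPOQ (-0.0513 to 0.31), TNNC1 (-0.085 to 0.37), ATP5F1B (-0.13 to 0.13), RPS20 (-0.19 to 0.23), PCNA (-0.11 to 0.13), SPARC (-0.13 to 0.0862) and FABP4 (-0.52 to 0.39). With 5 birds a group and a median standard error of 0.18, differences of the size of the list medians were not resolved gene by gene.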
